A study of Mus musculus with 32 samples.

Results

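Transcripts of apolipoproteins and their partners were counted cell by cell in the median eminence (ME) of mice, the thin strip at the base of the hypothalamus where hormones and nutrients pass between blood and brain. The genes described are Apoe, Apod, Apoc1, Clu, Abca1, Lpl, Fabp3, Fabp5 and Fabp7, chosen by symbol, and all 9 of 9 were found among the 27998 genes of the count matrix. The MEs of 5 male C57B/L6 mice fasted overnight for 16 h, and of 5 refed chow for 1 h after the same fast, were pooled by condition, all mice being 40 to 47 days old. No transgene, mutation or drug is named for these mice. Live sorted cells of each condition were split over 2 droplet libraries, and the 5982 cells stand in 1 matrix with 29288898 unique molecular identifiers (UMIs, each standing for 1 captured transcript). Each barcode carries a suffix (barcode numbers 1 to 4) whose library and condition no label gives, so fasted and refed cells could not be separated. All values are for both conditions together, with no replicate and no test between groups.

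Apolipoproteins coat lipid particles, and in the brain glia make most of them, since those of plasma largely stay outside the blood-brain barrier. The vessels of the ME, according to the authors, lack this barrier. ABCA1 loads cholesterol and phospholipid onto APOE, lipoprotein lipase (LPL) frees fatty acids from triglyceride, and fatty acid binding proteins (FABPs) carry fatty acids through the cytoplasm. APOD is a lipocalin that binds small lipids, clusterin (Clu) is a secreted chaperone also called apolipoprotein J, and APOC1 is a small exchangeable apolipoprotein that inhibits lipid uptake and lipase action.

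The 3 FABP genes belong to 1 family, and the first 300 bases of their coding sequences are shown to make plain how far the transcripts that were counted apart resemble each other. They were read from the GENCODE vM21 transcripts of GRCm38, from the start codon on (bases 1 to 300 of 399, 405 and 396 without the stop codon). Capitals mark the letters that all 3 share in an alignment.
Fabp3: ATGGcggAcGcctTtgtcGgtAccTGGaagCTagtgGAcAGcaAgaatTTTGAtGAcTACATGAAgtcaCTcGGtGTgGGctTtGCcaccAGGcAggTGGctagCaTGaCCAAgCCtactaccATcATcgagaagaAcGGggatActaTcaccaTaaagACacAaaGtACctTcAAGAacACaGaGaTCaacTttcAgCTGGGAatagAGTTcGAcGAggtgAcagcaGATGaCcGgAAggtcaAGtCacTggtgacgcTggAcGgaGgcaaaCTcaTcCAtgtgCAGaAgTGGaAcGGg
Fabp5: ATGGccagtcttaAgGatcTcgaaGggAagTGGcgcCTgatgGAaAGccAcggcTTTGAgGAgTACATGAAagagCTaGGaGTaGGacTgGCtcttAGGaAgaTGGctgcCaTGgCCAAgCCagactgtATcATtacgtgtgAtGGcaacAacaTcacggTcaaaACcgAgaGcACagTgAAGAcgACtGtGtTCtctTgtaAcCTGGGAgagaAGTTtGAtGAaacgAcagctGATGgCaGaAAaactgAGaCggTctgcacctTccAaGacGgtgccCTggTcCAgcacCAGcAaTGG
Fabp7: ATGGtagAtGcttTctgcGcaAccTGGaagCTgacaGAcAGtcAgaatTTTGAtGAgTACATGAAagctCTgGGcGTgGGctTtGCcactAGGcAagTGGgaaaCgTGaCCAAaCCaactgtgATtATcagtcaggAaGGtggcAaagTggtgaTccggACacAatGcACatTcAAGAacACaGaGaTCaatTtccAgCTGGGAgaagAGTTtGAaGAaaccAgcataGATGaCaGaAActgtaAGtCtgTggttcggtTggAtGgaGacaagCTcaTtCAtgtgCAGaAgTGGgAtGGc

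The 3 whole coding sequences had the same letter at 171 of 396 aligned positions (43.2%). Fabp3 and Fabp7 were the closest pair with 66.9% identity, against 55.4% for Fabp3 and Fabp5 and 55.6% for Fabp5 and Fabp7. The last 500 bases of each transcript, where reads of this 3′ assay start, were compared with all other transcripts for stretches of at least 100 bases with at least 90% identity. The only such copy of any of the 9 genes was Fabp3-ps1, a processed pseudogene with 99.2% identity over 262 bases of Fabp3, so Fabp3 counts may be split with it. Fabp3-ps1 had 144 UMIs in all, and its highest level was 7.57 CPM (UMIs of the gene per 1000000 UMIs of the cells) in neuron-like cells.

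On GRCm38, Apoe (ENSMUSG00000002985) lay at chr7:19696109-19699188 on the minus strand in 4 exons. Apoc1 (ENSMUSG00000040564) lay at chr7:19689481-19692660 on the minus strand in 3 exons, and 3448 bases separated these 2 genes. Apod (ENSMUSG00000022548) lay at chr16:31296192-31314808 on the minus strand in 6 exons. Clu (ENSMUSG00000022037) lay at chr14:65968483-65981547 on the plus strand in 9 exons. Abca1 (ENSMUSG00000015243) lay at chr4:53030787-53159895 on the minus strand in 50 exons. Lpl (ENSMUSG00000015568) lay at chr8:68880491-68907448 on the plus strand in 10 exons. Fabp3 (ENSMUSG00000028773) lay at chr4:130308595-130315463 on the plus strand in 4 exons. Fabp5 (ENSMUSG00000027533) lay at chr3:10012548-10016607 on the plus strand in 4 exons. Fabp7 (ENSMUSG00000019874) lay at chr10:57784881-57788450 on the plus strand in 4 exons. Apoe and Apoc1 share a strand but do not overlap, so position rather than strand tells reads of the pair apart.

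Cells fell into 23 clusters, of which 21 were named from marker lists as 13 cell types. The names are rebuilt from markers and carry "-like" for that reason. The defining markers were highest in their own type for every marker of 12 lists and for 6 of 8 neuronal markers. Types ranged from 1637 tanycyte-like cells (glia that line the third ventricle) to 75 mural-like cells, with median UMIs per cell from 2246 in endothelial-like to 13412 in neuron-like cells. The macrophage-like cluster was led by the antigen presentation genes Cd74 and H2-Aa, and 1 of 2 microglia-like clusters (48 cells) by the chemokine gene Ccl4 and the early response gene Junb. Barcode numbers 1 to 4 held 1642, 1493, 1359 and 1488 cells, and 21 barcode sequences occurred under more than 1 number, in 42 cells. Intervals are exact at the 95% level and cover counting error only. Shares of cells with a UMI depend on depth, so they are also given after each cell was thinned to 1000 UMIs, for which 0 cells were too shallow.

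The 9 genes together gave 523420 UMIs, 1.79% of the matrix, and Apoe alone gave 86.7% of these. They took 7.77% of all UMIs of macrophage-like cells, 5.03% in astrocyte-like, 2.46% in tanycyte-like and 2.28% in microglia-like cells, and 0.197% in mural-like cells, the lowest. The type with the highest level differed between the genes. It was macrophage-like for Apoe and Abca1, astrocyte-like for Clu and Apoc1, vascular and leptomeningeal cell (VLMC)-like for Apod and Lpl, neuron-like for Fabp3, differentiating oligodendrocyte precursor (diffOPC)-like for Fabp5 and oligodendrocyte precursor (OPC)-like for Fabp7. In Apod, Abca1, Lpl, Fabp3 and Fabp7 the highest type stood at least 2 times above the next, 5 of 9 genes, against 14.8% of the 11016 genes with at least 200 UMIs. Abca1 was below 2 times at 1000 UMIs per cell, with the members left out of clustering and without barcode number 1 or 4, which leaves 4 of 9. At 4 times, Lpl and Fabp3 remained, 2 of 9 genes against 4.39%. These ratios were taken on CPM plus 10, and other ratios below on plain CPM or, where named, as log2 of CPM plus 10.

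**Figure D1:**
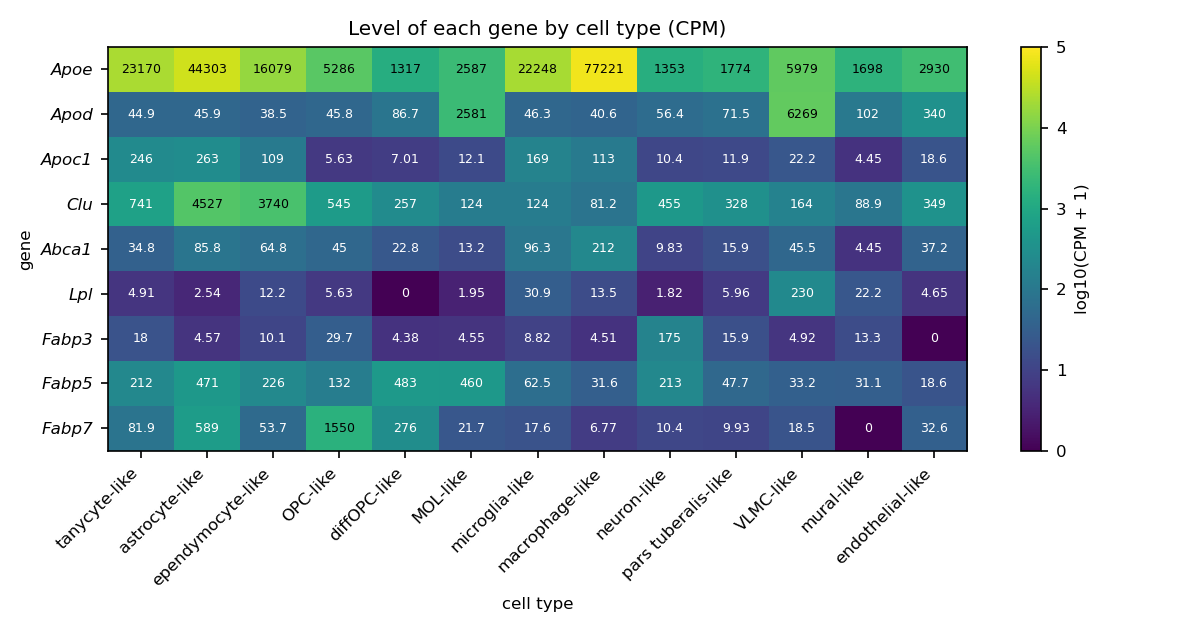
Level of each gene (rows) in each cell type (columns) in CPM, written in the cell and coloured as log10(CPM + 1). Apoe stands above 1000 CPM in all 13 types, while Lpl and Fabp3 pass 100 CPM in 1 type each.

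Apoe, the main apolipoprotein of brain lipid particles, was the gene with the most UMIs of all in macrophage-like cells and was 2nd among all genes over the whole matrix. In macrophage-like cells it stood at 77221 CPM (95% interval 76405 to 78044), and at 80983, 81679.6, 70746 and 69574 CPM in barcode numbers 1 to 4. In astrocyte-like cells it stood at 44303 CPM, with 44411, 46042, 42909 and 43371 CPM in the 4 numbers. The macrophage-like values lay above the astrocyte-like values in every number, and the ratio of the pooled levels was 1.74.

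Tanycyte-like cells followed with 23169.96 CPM, microglia-like with 22248 CPM and ependymocyte-like (ciliated cells of the ventricle wall) with 16079 CPM. The ranges of the numbers overlapped between tanycyte-like (22941 to 23417 CPM) and microglia-like cells (10576 to 28559.7 CPM), and between microglia-like and ependymocyte-like cells (14534 to 17530.4 CPM). VLMC-like cells had 5979 CPM, OPC-like 5286 CPM, endothelial-like 2930.1 CPM and mature oligodendrocyte (MOL)-like 2587 CPM. The lowest 4 were pars tuberalis-like (1774 CPM), mural-like (1698 CPM), neuron-like (1353 CPM) and diffOPC-like cells (1317 CPM), whose number ranges overlapped from each to the next.

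Detection of Apoe did not separate the types, since 99.7% of all cells held a UMI. Neuron-like cells, taken as the type that should lack Apoe, were positive in 99.8% of cells at a median of 13412 UMIs and in 74.6% after thinning, against 100% and 97.7% in macrophage-like cells at a median of 3212 UMIs. The neuron-like level was 3.05% of the astrocyte-like level, while the 8 astrocyte markers stood in neuron-like cells at a median of 1.40% of theirs (1.04% to 2.33%). In diffOPC-like cells the same values were 2.97% for Apoe and 1.24% (0.932% to 1.86%) for the markers. Astrocyte-like cells served as the reference because they held the most Apoe UMIs (38.5%), a choice made after the values were seen. The reference planned beforehand was the highest type, macrophage-like cells. Against these, neuron-like Apoe was 1.75%, with a median of 0.179% (0.0407% to 2.54%) for the 7 macrophage markers. In diffOPC-like cells the values were 1.71% for Apoe and 0.129% (0% to 0.286%) for the markers. Most Apoe UMIs lay outside each reference type, while the markers were chosen for that type, so these percentages are not directly comparable. The part of free RNA in these low levels was not tested. Outside macrophage-, astrocyte-, tanycyte-, microglia- and ependymocyte-like cells, Apoe stood at 2275, 2486, 2236 and 2349.6 CPM in barcode numbers 1 to 4.

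Cells of 1 type differed in Apoe to very different degrees. At 1000 UMIs per cell, the median astrocyte-like cell had 43 Apoe UMIs, and the 10th and 90th percentiles were 30 and 60. The median macrophage-like cell had 86 (10th percentile 18.2, 90th 132) and the median tanycyte-like cell 21 (8 to 41). The median microglia-like cell had only 3, but its 90th percentile was 56.2 and its highest cell had 240, the highest cell of any type. The tenth of microglia-like cells with the most Apoe held 65.3% of their thinned Apoe UMIs, against 15.4% in astrocyte-like cells.

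**Figure D2:**
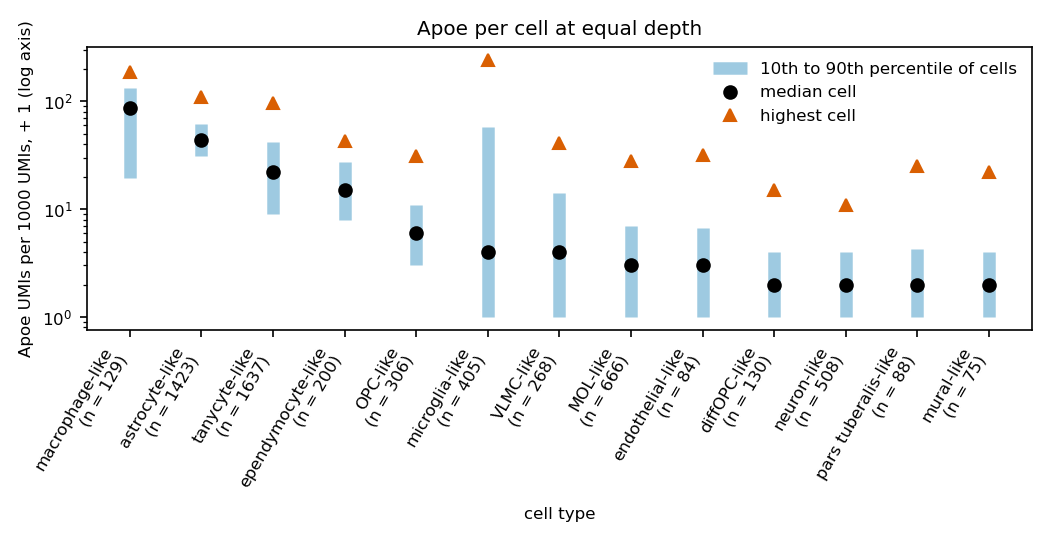
Apoe UMIs per cell after thinning to 1000 UMIs, plus 1, on a log axis for the 13 types. Points are the median cell, bars run from the 10th to the 90th percentile and triangles mark the highest cell; microglia-like cells have a median of 3 and a 90th percentile of 56.2.

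Microglia-like cells were set in 4 ranges of Apoe, chosen after the values were seen, which are ranges and not cell types. Of 405 cells, 176 (43.5%) had 0 to 2 Apoe UMIs per 1000, 127 had 3 to 9, 45 had 10 to 29 and 57 (14.1%) had 30 or more. The last range held 80.8% of the Apoe UMIs of all microglia-like cells. Near its limit, 16 cells had 20 to 29 and 5 had 30 to 39. Cells at 30 or more made up 16.3%, 17.1%, 14.5% and 5.00% of microglia-like cells in barcode numbers 1 to 4, and number 4 was low with 4 of 80 cells. The Apoe level over all microglia-like cells was lowest in number 4 as well, at 22249, 28559.7, 21918 and 10576 CPM.

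With Apoe left out of the totals, Apoc1 stood at 3.92 CPM (2 UMIs) in the lowest range, 4.95 and 160.2 CPM in the middle ranges and 822 CPM (198 UMIs) in the highest. Nearly all microglial Apoc1 thus lay in the cells with the most Apoe. From the lowest to the highest range, Fabp5 went from 29.4 to 183 CPM, and Lpl stood at 25.5, 14.9, 22.9 and 78.9 CPM in the 4 ranges in order. For Abca1 (82.3 and 129 CPM), Clu (82.3 and 133 CPM), Apod (37.3 and 49.8 CPM), Fabp3 (7.84 and 12.5 CPM) and Fabp7 (7.84 and 20.8 CPM) the intervals of the lowest and highest range overlapped. Npc2, which binds cholesterol in lysosomes, went from 894 to 1844 CPM, while the homeostatic microglial genes P2ry12 and Tmem119 went from 2804 to 972 CPM and from 1876 to 694 CPM. Trem2, a microglial receptor that binds lipids and apolipoproteins, was 2662 CPM in the lowest and 2729 CPM in the highest range. For the lipase gene Lipa (70.6 and 137 CPM) and the exporter gene Abcg1 (58.8 and 91.4 CPM) the intervals of these ranges overlapped. Apart from the members, these genes were picked after their values were seen.

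The summed level of the 7 macrophage markers was 5.88 CPM in the lowest and 195 CPM in the highest range, against 4823 CPM in macrophage-like cells. Of these markers, Mrc1 reached 54 CPM (13 UMIs) and Pf4 8.31 CPM (2 UMIs) in the highest range. Most of the 195 CPM thus came from the other macrophage markers. The 9 microglial markers summed to 32537 and 22681 CPM in the same ranges, against 8352 CPM in macrophage-like cells. The 8 astrocyte markers summed to 235 and 449 CPM in the same ranges, and to 282 and 744 CPM in the middle ranges. Their sum was 18454 CPM in astrocyte-like cells. Median depth was 2731 and 4250 UMIs in the lowest and highest range, and 1 of the 57 cells in the highest range was called a doublet. The part of depth, of the barcode number and of macrophage RNA in these differences was not tested.

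**Figure D3:**
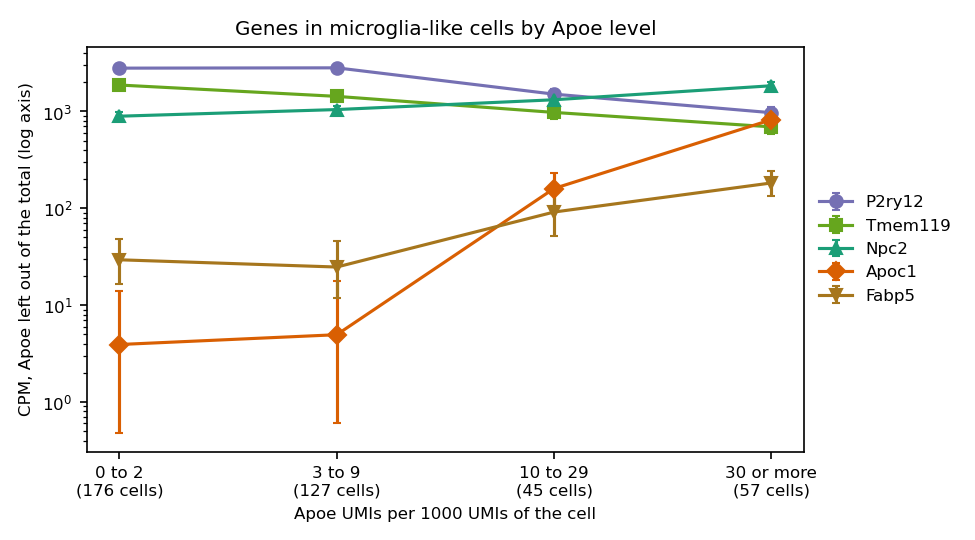
CPM of 5 genes, computed without Apoe, in microglia-like cells grouped by Apoe UMIs per 1000, on a log axis with exact Poisson 95% intervals. Apoc1 goes from 3.92 to 822 CPM between the lowest and highest range, and P2ry12 from 2804 to 972 CPM.

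Apoc1 had 3304 UMIs. In astrocyte-like cells it stood at 263 CPM (242, 279, 232 and 295 CPM in the 4 numbers) and in tanycyte-like cells at 246 CPM (267, 298, 225 and 189.5 CPM). These overlapped, and the order of the pair differed between numbers. Without number 4, tanycyte-like cells stood at 265 CPM and astrocyte-like cells at 253 CPM. Microglia-like cells had 169 CPM, with 269.6, 93.6, 318 and 12.1 CPM in the 4 numbers, and macrophage-like cells 113 CPM, with 235, 28.9, 20.9 and 161 CPM. Both immune types thus spread far more over the numbers than astrocyte- and tanycyte-like cells did. Ependymocyte-like cells followed at 109 CPM, and all other types lay at or below 22.2 CPM. Tanycyte-like cells were positive in 45.6% of cells (16.9% thinned, median 4102 UMIs), astrocyte-like in 35.6% (17.6% thinned, median 2665), and neuron-like, the type taken as lacking it, in 12.8% (0.591% thinned).

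Clu, a chaperone of secreted proteins and lipids, had 31952 UMIs, and astrocyte-like cells held 55.8% of them. There it stood at 4527 CPM, with 4391, 4593, 4468 and 4657 CPM in the 4 numbers, and in ependymocyte-like cells at 3740.2 CPM, with 3497, 4118, 3587 and 3809 CPM. The 2 sets did not overlap, at a ratio of 1.21. After thinning, 97.3% and 95% of these cells were positive, against 10.9% of microglia-like cells (27.9% before thinning, median 3093 UMIs), the type taken as lacking Clu. Tanycyte-like (741 CPM), OPC-like (545 CPM) and neuron-like cells (455 CPM) came next, with overlapping number ranges. Neuron-like Clu was 10.1% of the astrocyte-like level against a median of 1.40% for the astrocyte markers, and within neurons it was 569 CPM in the Agrp-led, 467 CPM in the Sst-led and 95.2 CPM in the Rgs16-led cluster. The lowest level was 81.2 CPM in macrophage-like cells, where Apoe was highest.

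Among the 3 tanycyte-like clusters, named by their leading genes, 4 of the genes stood in 3 different orders. These clusters were built from the same cells and counts, so the values are a description. Apoc1 was 373 CPM in the Scn7a-led cluster (549 cells), 186 CPM in the Gfap-led (367 cells) and 158 CPM in the Dio3-led (721 cells). Clu was 1834 CPM in the Gfap-led, 563 CPM in the Dio3-led and 226 CPM in the Scn7a-led cluster. Fabp5 was 436, 134 and 35.2 CPM in the Dio3-, Gfap- and Scn7a-led clusters, and Fabp7 had the same order with 128, 78 and 37.5 CPM. The Scn7a-led cluster was therefore the highest for Apoc1 and the lowest for the other 3. Apoe differed less, from 19960.4 to 27129.6 CPM. Median depths were 3583 (Dio3-led), 4312 (Gfap-led) and 4766 UMIs (Scn7a-led).

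Against astrocyte-like cells, tanycyte-like cells were lower by at least 1 log2 unit in 4 of the 8 genes that had at least 50 UMIs in both types together, where 7.03% of all genes were lower. The log2 differences were -2.70 for Fabp7, -2.59 for Clu, -1.11 for Fabp5 and -1.10 for Abca1, and Apoe stood at -0.93. None of the 8 was higher by that much (10.5% of all genes), the largest difference upward being 0.94 for Fabp3. Ependymocyte-like cells exceeded tanycyte-like cells by at least 1 log2 unit in 1 of 8 tested genes, Clu (2.32, with 8.39% of all genes higher). They were lower by that much in 1 of the 8, Apoc1 (-1.10, with 4.82% lower).

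**Figure D4:**
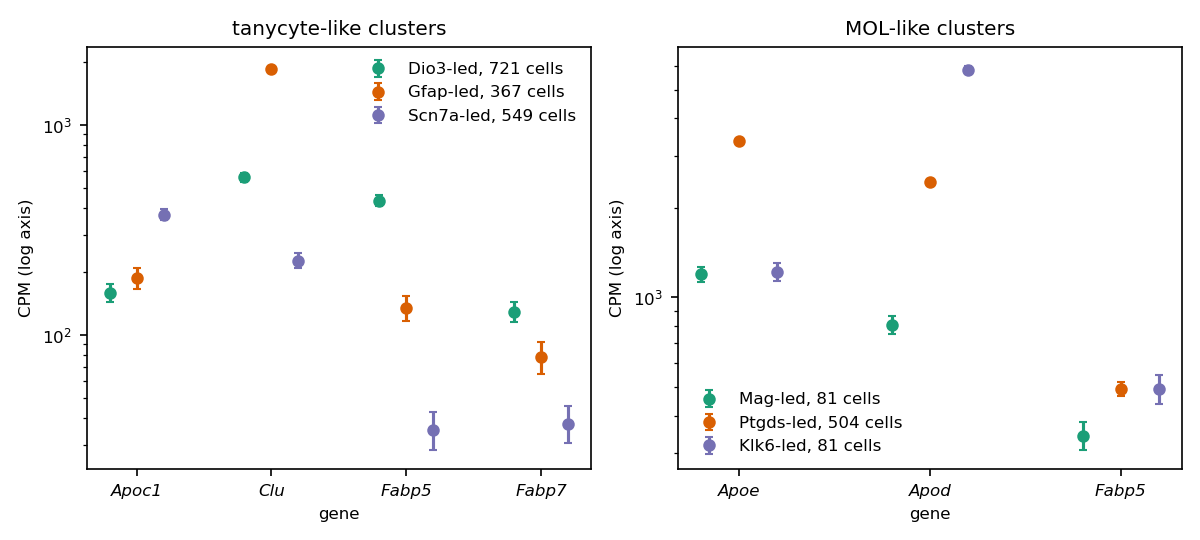
CPM on a log axis, with exact Poisson 95% intervals, of 4 genes in the 3 tanycyte-like clusters (left) and of 3 genes in the 3 MOL-like clusters (right). The Scn7a-led tanycyte-like cluster is highest for Apoc1 at 373 CPM and lowest for Fabp5 at 35.2 CPM, and the Klk6-led MOL-like cluster is highest for Apod at 5807 CPM.

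Apod had 18317 UMIs, most of them in 2 types. VLMC-like cells, fibroblast-like cells of vessels and meninges, stood at 6269 CPM, with 6398, 6801, 5389 and 6603 CPM in the 4 numbers. MOL-like cells stood at 2581 CPM, with 2657, 2622, 2723 and 2345 CPM, and held 65% of all Apod UMIs. The VLMC-like values lay above the MOL-like values in every number, at a ratio of 2.43. Thinned cells were positive in 90.3% (VLMC-like, median 2888 UMIs) and 85.7% (MOL-like, median 6150 UMIs), against 3.46% of microglia-like cells, taken as lacking Apod. Endothelial-like cells had 339.5 CPM, mural-like 102 CPM, and every other type 38.5 to 86.7 CPM. Outside VLMC-, MOL- and endothelial-like cells Apod stood at 33.9, 35.1, 68.3 and 67.3 CPM in barcode numbers 1 to 4. Numbers 3 and 4 were thus about level with each other and above numbers 1 and 2. The part of free RNA in this low level was not tested.

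Along the oligodendrocyte lineage the genes followed different courses from OPC-like through diffOPC-like to MOL-like cells. Fabp7, the brain-type FABP of glial progenitors, was 1550.1, 276 and 21.7 CPM in that order. Fabp5 was 132, 483 and 460.2 CPM, and Apod 45.8, 86.7 and 2581 CPM. Apoe was 5286, 1317 and 2587 CPM, with its lowest value of all types in diffOPC-like cells. Fabp7 was thus lower at each later stage, and Apod was highest in MOL-like cells. The OPC- and diffOPC-like Apod values lay within the range of the low types (38.5 to 102 CPM). The part of free RNA in that range was not tested. With MOL-like cells pooled, the Apoe level in the middle stage was below both ends. Of the MOL-like clusters described below, only the Ptgds-led cluster stood above diffOPC-like cells in Apoe.

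From OPC-like to diffOPC-like cells, 3 of the 6 genes with enough UMIs were lower by at least 1 log2 unit (Fabp7 -2.45, Apoe -2.0, Clu -1.05), where 12.4% of all genes were lower. Fabp5 was the 1 gene higher (1.80), where 6.42% of all genes were. From diffOPC-like to MOL-like cells, Apod was the 1 of 7 genes higher by that much (4.74, all genes 8.44%), and Fabp7 (-3.17) and Clu (-1.0) were lower (all genes 14.2%). Median depth was 4025 UMIs in OPC-like, 8604 in diffOPC-like and 6150 in MOL-like cells.

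MOL-like cells held 3 clusters. Apod was 5807 CPM (95% interval 5625 to 5993) in the Klk6-led cluster (81 cells), 2442 CPM in the Ptgds-led (504 cells) and 808 CPM in the Mag-led (81 cells). Apoe was 3348 CPM in the Ptgds-led cluster against 1214 and 1198 CPM in the Klk6- and Mag-led clusters. Fabp5 was 491, 492 and 343 CPM in the Klk6-, Ptgds- and Mag-led clusters. The cluster with the most Apod was thus among the lowest in Apoe. Apod was itself among the 10 leading genes of the Klk6-led cluster, so its level there is no separate result.

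Fabp7 had 5410 UMIs. In OPC-like cells it was 1537, 1606, 1352 and 1682 CPM in the 4 numbers and in astrocyte-like cells 572, 615, 562 and 601 CPM. The sets did not overlap, with 1550.1 against 589 CPM pooled, a ratio of 2.63. OPC-like cells were positive in 97.7% of cells (71.2% thinned, median 4025 UMIs), and neuron-like cells, taken as lacking it, in 11.2% (0.591% thinned). Below diffOPC-like cells (276 CPM) came tanycyte-like (81.9 CPM) and ependymocyte-like cells (53.7 CPM), and mural-like cells had 0 of 224933 UMIs, which allows up to 13.3 CPM.

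Fabp5, the epidermal-type FABP, had 7957 UMIs, passed 100 CPM in 7 types and had no single leading type. diffOPC-like cells stood at 483 CPM (425, 412, 648 and 431 CPM in the 4 numbers), astrocyte-like at 471 CPM (456, 441, 487 and 507 CPM) and MOL-like at 460.2 CPM (469, 465, 464 and 445 CPM). The 3 overlapped, and number 3 was the high one in diffOPC-like cells. Without number 3, Fabp5 stood at 423 CPM in diffOPC-like and 466 CPM in astrocyte-like cells. Ependymocyte-like (226 CPM), neuron-like (213 CPM) and tanycyte-like cells (212 CPM) overlapped as well. Positive cells made up 78.5% of diffOPC-like (27.7% thinned), 63.5% of astrocyte-like (35.4% thinned) and 4.76% of endothelial-like cells (3.57% thinned, median 2246 UMIs), the lowest type with 18.6 CPM.

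Fabp3, the heart-type FABP, was the one member highest in neuron-like cells, which held 82.5% of its 1400 UMIs. It stood there at 175 CPM (95% interval 165 to 185), with 191, 163, 176 and 169 CPM in the 4 numbers, and in OPC-like cells, the next type, at 29.7 CPM, with 18.6, 38.2, 50.9 and 18.9 CPM. No value of the one reached those of the other, and the ratio was 5.87. The Rgs16-, Sst- and Agrp-led neuronal clusters had 187, 183 and 135 CPM. A UMI was seen in 80.9% of neuron-like cells at a median of 13412 UMIs but in 15% after thinning, against 2.96% and 0.494% of microglia-like cells, taken as lacking it. Endothelial-like cells had 0 of 215009 UMIs, which allows up to 14 CPM.

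Abca1, the exporter that lipidates APOE, had 1139 UMIs and was highest where Apoe was. Macrophage-like cells stood at 212 CPM (95% interval 171 to 259.6), with 285, 166, 156 and 234 CPM in the 4 numbers, and microglia-like cells at 96.3 CPM, with 141, 74.5, 96.3 and 60.4 CPM. The macrophage-like values all lay above the microglia-like ones, at a ratio of 2.20. At 1000 UMIs per cell the levels were 147 and 93.8 CPM. Astrocyte-like (85.8 CPM), ependymocyte-like (64.8 CPM), VLMC-like (45.5 CPM) and OPC-like cells (45 CPM) overlapped from each to the next, and mural-like cells were lowest with 1 UMI (4.45 CPM). Positive cells made up 46.5% of macrophage-like cells (12.4% thinned, median 3212 UMIs) and 1.33% of mural-like cells (0% thinned, which allows up to 4%, median 2946 UMIs). Against microglia-like cells, macrophage-like cells were higher by at least 1 log2 unit in Apoe (1.79) and Abca1 (1.06), 2 of 6 genes with enough UMIs, where 3.6% of all genes were higher. None of the 6 was lower by that much, where 8.08% of all genes were.

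Lpl had 328 UMIs, of which VLMC-like cells held 57%. They stood at 230.2 CPM (95% interval 198 to 266), with 229.97, 167, 290.2 and 228 CPM in the 4 numbers, and microglia-like cells at 30.9 CPM (42 UMIs), with 30, 42.6, 14.4 and 24.2 CPM. The sets stood apart, at a ratio of 7.45. Positive cells made up 38.4% of VLMC-like (16% thinned) and 8.89% of microglia-like cells (3.21% thinned), and diffOPC-like cells had 0 of 1141798 UMIs, which allows up to 2.63 CPM. Against mural-like cells, VLMC-like cells were higher by at least 1 log2 unit in Apod (5.81), Lpl (2.90) and Apoe (1.81), 3 of 4 genes with enough UMIs, where 16.2% of all genes were higher. None of the 4 was lower by that much (8.85% of all genes). The mural-like Lpl level rested on 5 UMIs.

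**Figure D5:**
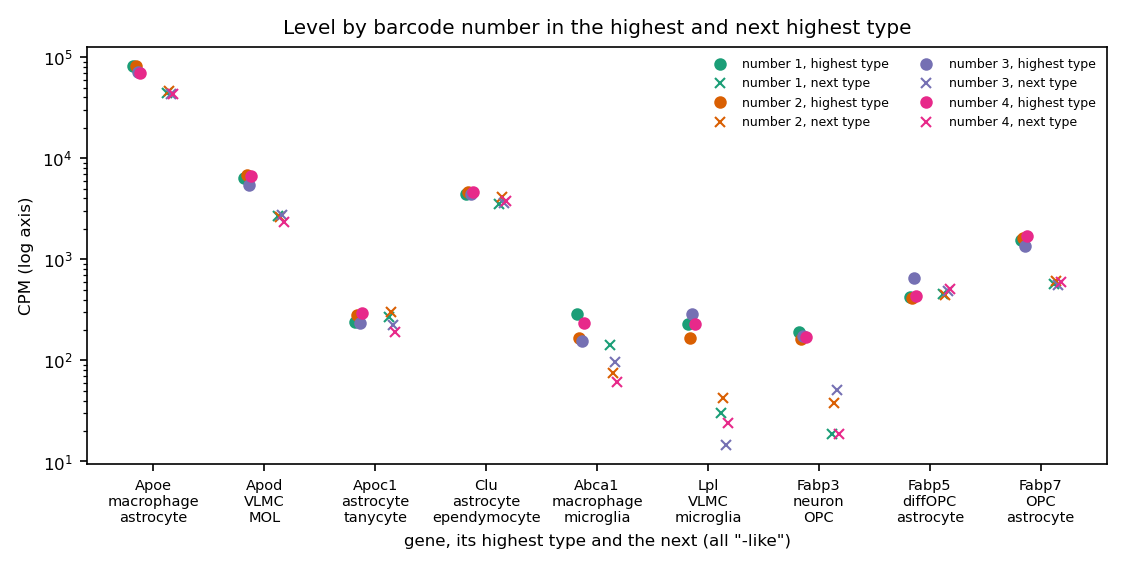
CPM on a log axis in barcode numbers 1 to 4 (colours) for each gene in its highest type (circles) and its next highest (crosses), named under the gene. Circles and crosses are separate for 7 genes and overlap for Apoc1 and Fabp5.

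Genes of like profile were sought by the Pearson correlation of log2(CPM + 10) over the 13 types, which share the same libraries and differ in depth. The closest 5 to Apoe were Sat1 (0.91), the members Apoc1 (0.90) and Abca1 (0.89), Idua and Cmtm3. Apoc1 was closest to Apoe, Tlr3 (0.89), Cst3, Pdlim4 and Cd27, and Abca1 to Apoe, P2rx7, Mapkapk2, Nfkb1 and Dcxr. No other member had a member among its closest 5. Apod was closest to Ctsk (0.93), B3gnt9, Ptgds, Fancc and Cdc42ep2, and Clu to Dtx1 (0.95), Rpusd3, Rita1, Slc1a4 and C030037D09Rik. Lpl was closest to Nupr1 (0.95), Col6a2, Tcf21, Col3a1 and Crispld2, and Fabp3 to Pcp4 (0.95), Zwint, Camk2n2, Fbxw7 and Meaf6. Fabp5 was closest to Bdh1 (0.90), Echdc1, Atrn, Clasp2 and Arl8a, and Fabp7 to Mir9-3hg (0.95), Ptprz1, Bcan, Gpr37l1 and Xylt1.

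The wider lipid pathway was read from gene lists, with genes named by their UMIs. Of 13 other apolipoproteins, 2 had no UMI and 2 reached 200 UMIs, both highest in pars tuberalis-like cells (pituitary cells next to the ME, where 6.68% of all genes with at least 200 UMIs were highest), Apoc3 at 3128 CPM against 26.2 CPM in the next type, and Apoa1 at 179 CPM against 69.4 CPM. Apoa4 reached 107 CPM there and Apoa2 15.4 CPM in neuron-like cells. Of 10 relatives of the FABPs, 5 had no UMI. The retinoic acid binding genes Crabp1 (216 CPM) and Crabp2 (28.3 CPM) were highest in neuron-like and VLMC-like cells, and Fabp4 (66.7 CPM, 22 UMIs) in mural-like cells.

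Of 12 lipoprotein receptors and their partners, 10 reached 200 UMIs, with their highest levels in 8 types. Trem2 was 2538 CPM in microglia-like and 641 CPM in macrophage-like cells, Lrp1 (a large APOE receptor) was highest in VLMC-like cells with 467 CPM, Scarb2 in MOL-like with 171 CPM and Vldlr in diffOPC-like with 173 CPM. Of 12 lipases and partners, 8 reached 200 UMIs. Mgll (260.1 CPM) and Lmf1 (107 CPM), which matures LPL, were highest in diffOPC-like cells, Pnpla2 in mural-like (147 CPM) and Abhd5 in MOL-like cells (82.8 CPM). Of 2 further genes chosen after their values were seen, the LPL inhibitor Angptl4 was highest in VLMC-like cells (311 CPM), where Lpl was, and the LPL anchor Gpihbp1 had 6 UMIs in all.

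Of 14 cholesterol carriers and exporters, 12 reached 200 UMIs. Npc2 was 1332 CPM in macrophage-like and 1143 CPM in microglia-like cells, the phospholipid transfer gene Pltp 1722 CPM in ependymocyte-like and 1465 CPM in endothelial-like cells, Abca2 284 CPM in MOL-like cells and the cholesterol esterifying Soat1 154 CPM in astrocyte-like cells. All 16 genes of fatty acid uptake and use reached 200 UMIs, and 5 were highest in astrocyte-like cells, as were 6.40% of all genes with at least 200 UMIs. Among these were the acyl-CoA synthetases Acsl3 (1318 CPM) and Acsbg1 (869 CPM, also a marker used to name those cells) and the transporter Slc27a1 (584 CPM). Dbi, the acyl-CoA binding protein, was highest in ependymocyte-like cells (26161 CPM), ahead of tanycyte-like cells (5892 CPM). Of 13 nuclear receptors and sterol sensors, 11 reached 200 UMIs, with Insig1 (189 CPM) and Srebf1 (210.4 CPM) highest in astrocyte-like, Nr1h2 (102 CPM) in endothelial-like and Srebf2 (57.7 CPM) in ependymocyte-like cells.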

How the data were processed

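Cells of the ME from 2 conditions, 5 mice each, were profiled by a 3′ droplet assay that counts UMIs. Per the labels, the authors mapped reads to GRCm38 (mm10) and counted UMIs with Cell Ranger 2.0. The deposited values are whole UMI counts per gene and cell, not normalized, in 1 matrix for all 32 sample records, which are parts of 4 libraries. The annotation release and the rule for calling cells are not given in the sources used here. Of 27998 gene identifiers, 27645 matched a GENCODE vM21 symbol. Columns of other samples numbered 0.

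Counts were log-normalized, and 2000 variable genes (5 of the 9 members among them) gave 30 principal components, 15 neighbours and Leiden clusters at resolution 1 (scanpy 1.11.5). A cluster was named by the marker list with the highest score, at least 0.3 and 1.5 times the next. At least 4 markers had to lie 4 times above the median cluster. The rule had asked for 3 and was raised after the data were seen, which left a cluster of 41 cells led by Ccn3 unnamed. The 60 unnamed cells, and 3 cells with over 10% of UMIs from haemoglobin genes, entered no type. Scrublet called 50 doublets (0.836%), which were kept and left out in an alternative. The members, lists and tests were chosen with earlier results of these data known. Named genes are the 9 members, the 5 genes most like each in profile and the 4 genes with the most UMIs of each list, of which 1 is not reported here.

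Levels are summed UMIs as CPM with exact Poisson intervals, and shares have Clopper-Pearson intervals. PCR duplicates are removed by UMIs, but UMIs of 1 cell are not independent. Ratios with a pseudocount of 10 CPM used genes with at least 50 UMIs in both types together. Where no UMI was seen, up to 3 are taken as possible. Thinning, ratios and intervals were tested on simulated data. The planned comparison of refed with fasted cells was not made, since no label gives the condition of a cell. Sequences were aligned with MAFFT 7.526 and searched with BLAST 2.17.0. Alternatives were another clustering method and resolution, clustering without the members, no doublets, equal depth and each barcode number left out in turn.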

Additional observations from a re-analysis of the deposited data

Results flagged for a closer look

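Fabp5 in diffOPC-like cells stood at 648 CPM in barcode number 3, far from the other 3 numbers, which lay between 412 and 431 CPM. It was the 1 value set apart in this way among the 9 values tested, each gene in its highest type. Chance sets apart about 1 in 20, but that rate does not hold here, since diffOPC-like cells were the highest type for Fabp5 only with number 3 included. Which library a barcode number stands for is not given, and the cause was not tested.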

How the results depend on the processing

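Each value is the log2 ratio of CPM between the highest and the next highest type, recomputed for the same pair of types. Outside leaving out barcode numbers, 39 ratios were recomputed, of which 31 moved by less than their counting interval, 7 moved by more and 1 turned round. At 1000 UMIs per cell, Fabp5 turned from 0.036 to -0.10, Abca1 went from 1.14 to 0.65, Apod from 1.28 to 1.37 and Apoe from 0.80 to 0.90. At resolution 2, Apoe was 0.94 and Clu 0.34 (0.28 as reported), and with the members left out of clustering Apoe was 0.62. K-means with 9 clusters named 5 types, gave 0.14 for Clu and left 3 genes, in place of 5, at least 2 times above the next type, against 4 at equal depth and with the members left out of clustering. It named no macrophage-, microglia-, neuron-, OPC- or diffOPC-like cells, so ratios that need them could not be computed. The cause of the other shifts was not tested. The type with the highest level was the same for 9 of 9 genes at resolution 2, without the members and without doublets, for 8 at equal depth and for 4 under K-means. The highest types of the other genes were not among the 5 types that K-means named.

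With 1 barcode number left out, the ratio ranged from 1.00 to 1.24 for Abca1, -0.068 to 0.20 for Apoc1, 1.21 to 1.38 for Apod, 0.77 to 0.82 for Apoe, 0.26 to 0.30 for Clu, 2.26 to 2.81 for Fabp3, -0.14 to 0.12 for Fabp5, 1.37 to 1.42 for Fabp7 and 2.62 to 3.35 for Lpl. Genes at least 2 times above the next type numbered 4 to 5. Apoc1 turned to -0.068 without number 4 and Fabp5 to -0.14 without number 3. No paired analysis was possible because the matrix pools all libraries and no groups of samples could be compared. The levels of Lpl, Abca1 and Fabp3 rest on few UMIs in several types.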

Other observations

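The 2 clusters without a cell type name also held Apoe. The 41 cells led by Ccn3 and Spon2 had 10076 CPM of Apoe, 727 CPM of Clu and 216 CPM of Apod, and the 19 cells led by the lymphocyte genes Ccl5 and Nkg7 had 1542 CPM of Apoe, near the levels of neuron-like and mural-like cells.

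Detection of 2 members in the same thinned cell was set beside the product of their shares. Apoe was found in most thinned cells of all 13 types, which limits how far its pairs can exceed the product. Among pairs with at least 15 cells holding both, 2 lay below 0.8 times the product. Pairs above the product are not listed here. Apoe and Fabp5 were found together in 15.4% of diffOPC-like cells against a product of 20.2%, and Apoc1 and Fabp7 in 0.977% of tanycyte-like cells against 1.44%. These are descriptions of cells from pooled libraries, with no test.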
